A study of Mus musculus with 78 samples.

Results

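This account describes 34 microglia, complement and brain immune genes, all present in both count tables, out of 55367 gene symbols in all. The genes were chosen by name from known function, with earlier results of these data known. They were followed across 7 dissected mouse brain regions and between mice lacking the enzyme ACSS2 (KO) and wild-type mice (WT). RNA-seq was available from 78 libraries of 12 C57BL6/J mice, with 3 female KO, 3 female WT, 3 male KO and 3 male WT animals. The KO is constitutive: guides in the introns flanking exons 3 to 7 of Acss2 removed that stretch in every cell, and founders were backcrossed for 3 generations. Every mouse, WT included, was an adult housed singly that drank 15% ethanol by volume in the drinking-in-the-dark paradigm, with ethanol offered for 2 h on days 1 to 3 and for 4 h on day 4, so no library represents an ethanol-free brain. The labels give neither an exact age nor the time from the last drink to dissection. The amygdala and cortex had 11 libraries each, the prefrontal cortex 8 (3 female KO, 2 female WT, 1 male KO and 2 male WT), and the dorsal hippocampus, ventral hippocampus, dorsal striatum and ventral striatum 12 each.

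Microglia are the resident macrophages of the brain. They survey the tissue through surface receptors for chemokines and nucleotides, clear debris through lysosomal enzymes, and make the C1q proteins that tag synapses and debris for removal by the complement cascade. When stimulated they can add cytokines such as interleukin-1 and tumour necrosis factor, and interferon switches on a further set of antiviral genes. The 34 genes were grouped by role: 9 homeostatic surface receptors, 9 activating receptors and adaptors, 5 lysosomal and intracellular myeloid genes, 5 complement components, 4 cytokines, and 2 genes of interferon response and antigen presentation. All libraries came from whole tissue, so fewer microglia and less RNA per microglial cell cannot be told apart.

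The stretches of 250 bases before the RefSeq transcription start (build GRCm38.p6) are shown for 5 members, printed 5′ to 3′ on the gene's own strand. Ctss and Aif1 are shown because they were higher in the striatum, C1qc and Trem2 because they were lower in the dorsal striatum than in the dorsal hippocampus, and Ifit3 as an interferon-induced gene. Capitals mark matches on either strand to GAAANNGAA, the core of the interferon-stimulated response element, in Ctss, Aif1 and Ifit3, and to GAGGAAG, a PU.1-like motif read here as its reverse complement, in C1qc and Trem2. Ctss lies on chromosome 3 (chr3:95526536-95526785, plus strand), Aif1 on 17 (chr17:35176053-35176302, minus strand), Ifit3 on 19 (chr19:34583279-34583528, plus strand), C1qc on 4 (chr4:136892915-136893164, minus strand) and Trem2 on 17 (chr17:48346151-48346400, plus strand).
Ctss: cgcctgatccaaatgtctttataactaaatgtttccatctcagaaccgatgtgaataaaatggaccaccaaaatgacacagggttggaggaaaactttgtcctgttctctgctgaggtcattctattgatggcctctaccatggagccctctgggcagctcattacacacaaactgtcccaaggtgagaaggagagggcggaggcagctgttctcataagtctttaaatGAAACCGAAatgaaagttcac
Aif1: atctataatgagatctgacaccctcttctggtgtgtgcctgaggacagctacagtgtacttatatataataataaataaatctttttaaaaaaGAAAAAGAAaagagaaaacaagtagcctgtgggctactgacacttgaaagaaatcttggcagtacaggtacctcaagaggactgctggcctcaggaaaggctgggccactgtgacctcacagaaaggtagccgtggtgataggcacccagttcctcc
Ifit3: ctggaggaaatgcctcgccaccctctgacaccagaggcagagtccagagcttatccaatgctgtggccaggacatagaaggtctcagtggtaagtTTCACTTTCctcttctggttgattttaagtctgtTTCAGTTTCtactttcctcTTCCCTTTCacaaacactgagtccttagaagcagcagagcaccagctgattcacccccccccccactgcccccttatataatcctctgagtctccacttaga
C1qc: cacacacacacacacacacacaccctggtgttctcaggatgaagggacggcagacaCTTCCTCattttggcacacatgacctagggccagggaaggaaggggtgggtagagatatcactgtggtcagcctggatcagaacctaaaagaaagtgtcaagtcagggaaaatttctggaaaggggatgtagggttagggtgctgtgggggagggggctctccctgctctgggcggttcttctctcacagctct
Trem2: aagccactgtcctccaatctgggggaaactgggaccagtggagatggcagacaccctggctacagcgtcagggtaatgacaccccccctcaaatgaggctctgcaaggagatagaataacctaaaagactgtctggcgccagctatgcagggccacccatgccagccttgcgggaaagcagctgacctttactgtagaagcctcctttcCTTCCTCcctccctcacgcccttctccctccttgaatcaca
Of the 34 members, 22 had a promoter in the RefSeq table. GAGGAAG was found in 9 of these 22 (C1qc, Fcgr3, Fcrls, Il1a, Itgam, Laptm5, P2ry13, Tnf and Trem2) and in 10.6% of all 32851 promoters of the same length. C1qc and Trem2 were lower in the dorsal striatum than in the dorsal hippocampus. Fcgr3, Laptm5 and P2ry13, however, were higher in the dorsal striatum than in the amygdala. A link of motif and direction was not tested. GAAANNGAA was found in 3 of the 22 (Aif1, Ctss and Ifit3) and in 7.13% of all promoters. For both motifs members were counted once per gene, with a match in any listed promoter, while the background was counted per promoter. The matches are descriptions of these letters and were not tested as binding sites.

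The libraries fell into a deeper set (amygdala, dorsal hippocampus, dorsal and ventral striatum, 47 libraries of 4454420 to 14487778 counts) and a shallower set (cortex, prefrontal cortex and ventral hippocampus, 31 libraries of 629635 to 1228828 counts). A floor of 3 counts corresponds to 0.207 to 0.673 CPM (counts of a gene scaled to a fixed library total of 1e+06) in the deeper and 2.44 to 4.76 CPM in the shallower set. Depth, library numbering and region cannot be told apart between the sets, so regions were tested only within a set. Acss2 was at 0.971 to 14 CPM in KO and 35.9 to 73.8 CPM in WT libraries. In the prefrontal cortex, the library labelled female WT mouse 23 had no Xist counts and 73.4 CPM of Ddx3y, which goes against its sex label. In 9 libraries neuron markers went against the region label, by a rule chosen after the values were seen. These were the amygdala of female KO mouse 6 and female WT mouse 23, the dorsal striatum of female WT mouse 23 and male KO mouse 10, the prefrontal cortex of female KO mouse 5, the ventral hippocampus of female KO mouse 6 and male KO mouse 10, and the ventral striatum of male KO mouse 10 and male WT mouse 13. For example, 6 striatal projection neuron markers summed to 161 and 284 CPM in the 2 dorsal striatal libraries and to 3011 to 5837 CPM in the other 10. Results are given with all libraries and, where a call of a member is lost or gained, also without these 9.

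Ctss, the lysosomal protease cathepsin S, was the most abundant member per kilobase of transcript, at 49.98 ± 13.5 CPM per kilobase (SD, n = 78 libraries), followed by C1qb at 36.1 ± 7.65 and C1qa at 32.3 ± 8.02. C1qc was at 16.8 ± 3.24 on the same scale. These 4 members thus included all 3 chains of C1q, which are encoded side by side on chromosome 4. Tyrobp, the adaptor that signals for TREM2, averaged 15.4 ± 5.36, and Csf1r, the receptor for the growth factors that keep microglia alive, 15.3 ± 3.25. Among the other homeostatic receptors the per-kilobase level was 13.9 for the ADP receptor P2ry12, 11.7 for the fractalkine receptor Cx3cr1, 9.98 for Fcrls, 9.40 for Tmem119, 6.69 for Gpr34, 5.53 for Selplg, 4.37 for P2ry13 and 4.17 for Siglech. The complement members C4b (5.79) and C3 (0.243) lay well below the C1q chains. C4b has a near-identical neighbour, C4a, and Ifit3 one in Ifit3b, so reads of these pairs may have been shared between symbols. The lowest members were Il1b at 0.112, Ccl2 at 0.0428 and Tnf at 0.00913 CPM per kilobase. Of the 34 members, 19 had at least 3 counts in every library.

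The module mean was the average of log2(CPM + 1) over the 34 genes in a library. It is given as mean ± SD over libraries, and regions are set side by side only within a depth set. Within the deeper set it was 3.24 ± 0.14 in the amygdala (n = 11), 3.35 ± 0.15 in the dorsal hippocampus, 3.39 ± 0.25 in the ventral striatum and 3.46 ± 0.21 in the dorsal striatum (n = 12 each). Neighbours in this order differed by less than 1 SD. Without the 2 dorsal striatal libraries whose neuron markers went against the label the mean there was 3.53 ± 0.12. In the shallower set the module mean was 3.09 ± 0.13 in the cortex, 3.31 ± 0.16 in the ventral hippocampus and 3.36 ± 0.16 in the prefrontal cortex (n = 11, 12 and 8). The microglia-defining members Cx3cr1, P2ry12, Tmem119, Csf1r and C1qa each had at least 3 counts in every library. Microglial transcripts were thus detected in all 7 regions.

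**Figure D1:**
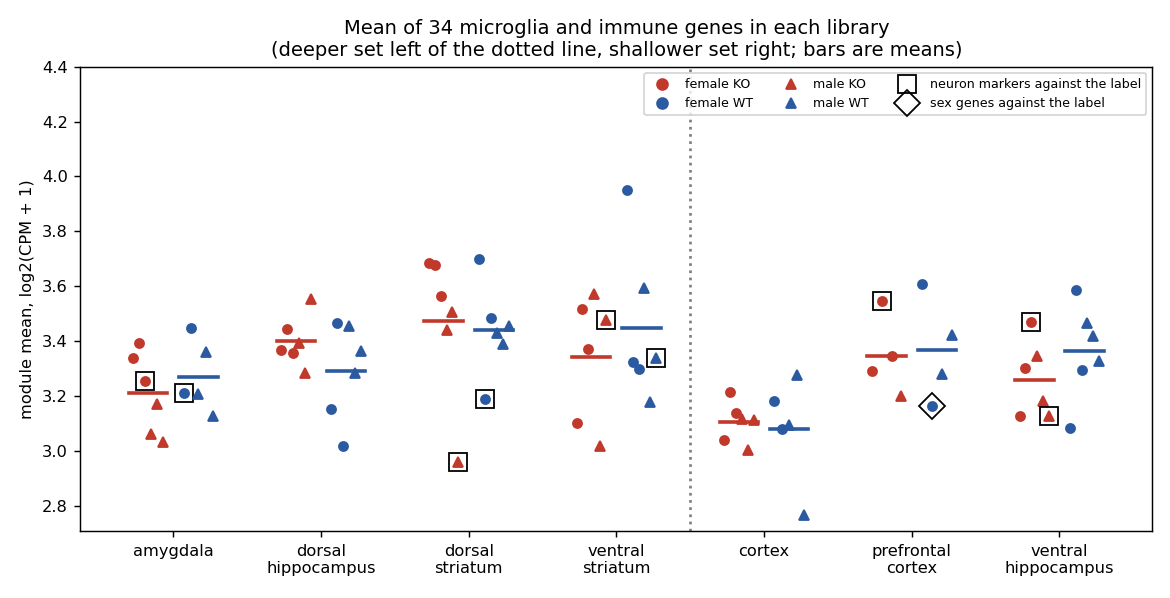
Module mean of log2(CPM + 1) over the 34 genes in each of the 78 libraries, by region, with KO in red, WT in blue, circles for females, triangles for males and bars for genotype means; squares mark the 9 libraries whose neuron markers go against the region label, and the diamond the library whose sex genes do. KO and WT points overlap in every region, and within the shallower set the cortex holds the lowest mean (3.09).

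Of the lysosomal and intracellular myeloid genes, all 5 were higher in the dorsal striatum than in the amygdala, where 27.4% of all 15140 genes tested were higher. In each of the other comparisons of a striatal region with the amygdala or the dorsal hippocampus, 4 of 5 were higher, against 22.7% (ventral striatum and amygdala), 27.4% (dorsal striatum and dorsal hippocampus) and 26.6% of all genes (ventral striatum and dorsal hippocampus). With the mouse as a block the last of these counts was 3, since Irf8 was lost (0.33, edgeR adjusted p = 0.071). Cd68, a lysosomal membrane protein of phagocytes, ran from 5.24 to 9.99 CPM in the amygdala (median 7.22, n = 11) and from 5.05 to 12.3 CPM in the dorsal hippocampus (median 8.63, n = 12). It ran from 6.26 to 19.7 CPM in the dorsal striatum (median 15.3, n = 12) and from 7.41 to 18.9 CPM in the ventral striatum (median 13.9, n = 12). The 2 lowest dorsal striatal values, 6.26 and 6.33 CPM, came from male KO mouse 10 and female WT mouse 23, whose neuron markers went against the label. The lowest ventral striatal value came from male WT mouse 13, for which the same holds. The remaining striatal libraries, at 11.1 CPM or more, were all above the highest amygdala library, while some overlapped the dorsal hippocampus. The log2 fold change of Cd68 from amygdala to dorsal striatum was 0.98 (SE 0.15, edgeR quasi-likelihood adjusted p = 6.2e-07), and 1.14 without the 9 libraries. From dorsal hippocampus to dorsal striatum it was 0.75 (SE 0.15, edgeR adjusted p = 3.1e-05).

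Aif1, the microglial calcium-binding protein IBA1, also had higher medians in both striatal regions than elsewhere in the deeper set. Its lowest median was in the dorsal hippocampus. It ran from 3.03 to 5.78 CPM in the amygdala (median 4.08), from 1.92 to 7.60 in the dorsal hippocampus (median 3.65), from 4.35 to 10.7 in the dorsal striatum (median 7.37) and from 4.21 to 11.7 in the ventral striatum (median 6.80). The groups overlapped, but the medians of both striatal regions were above the highest amygdala library. Aif1 was higher in the dorsal striatum than in the dorsal hippocampus by 0.81 on the log2 scale (SE 0.18, edgeR adjusted p = 0.00023), and in the ventral striatum by 0.67 (SE 0.18, edgeR adjusted p = 0.0020). Against the amygdala the differences were 0.78 and 0.64. Ctss rose from medians of 51.1 CPM in the amygdala (42 to 78.7) and 61.7 CPM in the dorsal hippocampus (42.3 to 76.5) to 84.9 CPM in the dorsal striatum (59.2 to 116) and 80.4 CPM in the ventral striatum (52.2 to 137). Its difference was 0.67 between dorsal striatum and amygdala (SE 0.12, edgeR adjusted p = 1.1e-05) and 0.44 between dorsal striatum and dorsal hippocampus (SE 0.12, edgeR adjusted p = 0.0019). Irf8, a transcription factor of the myeloid lineage, was higher in the dorsal striatum than in the dorsal hippocampus by 0.55 (SE 0.15, edgeR adjusted p = 0.0014), while Laptm5, a lysosomal transmembrane protein, was higher in both striatal regions than in the amygdala by 0.31.

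**Figure D2:**
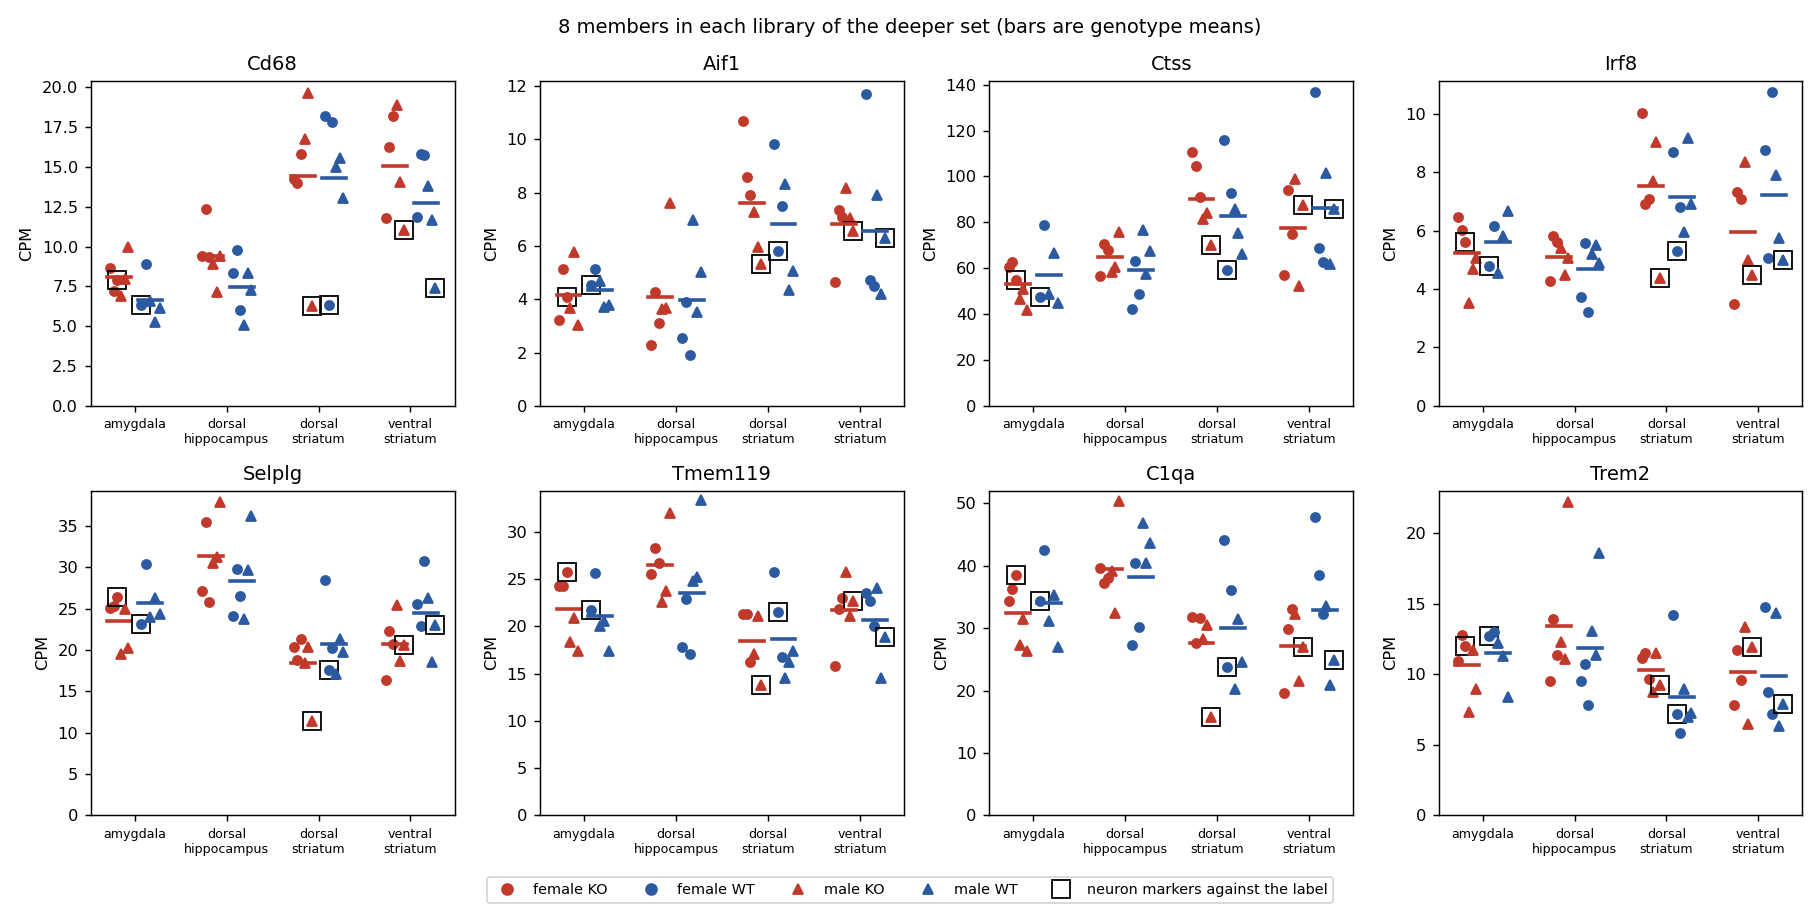
CPM of 8 members in each library of the deeper set, by region, with KO in red and WT in blue; squares mark libraries whose neuron markers go against the region label. Cd68, Aif1, Ctss and Irf8 sit higher in the 2 striatal regions (Cd68 medians of 15.3 and 13.9 CPM against 7.22 in the amygdala), and Selplg, Tmem119, C1qa and Trem2 sit highest in the dorsal hippocampus or overlap there.

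Homeostatic receptors did not move as 1 group. Between dorsal striatum and amygdala 5 of 9 were higher and 1 was lower, against 27.4% and 27.5% of all genes, and between dorsal striatum and dorsal hippocampus 3 were higher and 2 were lower, against 27.4% and 26.8%. Without the 9 libraries the lower call against the amygdala, Selplg, was lost (-0.21, edgeR adjusted p = 0.088), and Cx3cr1 (0.31) and Gpr34 (0.36) were called higher than in the dorsal hippocampus as well. With the mouse as a block P2ry13 was lost between dorsal striatum and dorsal hippocampus (edgeR adjusted p = 0.072). Selplg, the P-selectin ligand, was the member that was lower in both striatal regions than in the dorsal hippocampus by the widest margin. Its values were 23.8 to 38 CPM in the dorsal hippocampus (median 29.7), 11.4 to 28.5 in the dorsal striatum (median 20.01), 16.4 to 30.8 in the ventral striatum (median 22.6) and 19.5 to 30.4 in the amygdala (median 24.9). The log2 difference was -0.65 for dorsal striatum against dorsal hippocampus (SE 0.10, edgeR adjusted p = 7.3e-07), and -0.53 without the 9 libraries. It was -0.47 for ventral striatum against dorsal hippocampus (SE 0.10, edgeR adjusted p = 0.00012) and 0.34 for dorsal hippocampus against amygdala (SE 0.10, edgeR adjusted p = 0.0079). Tmem119, which lies beside Selplg on chromosome 5, was lower in the dorsal striatum (median 17.2 CPM) than in the dorsal hippocampus (median 25 CPM) by -0.46 (SE 0.10, edgeR adjusted p = 0.00022). In contrast, Csf1r was higher in the dorsal striatum than in the amygdala by 0.36, Cx3cr1 by 0.41, P2ry13 by 0.58, Siglech by 0.37 and Gpr34 by 0.36. Fcrls, at regional means of 21.5 to 25.3 CPM, was called in no pair.

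The complement members C1qa, C1qb and C1qc were highest in the dorsal hippocampus within the deeper set. C1qa ran from 27.3 to 50.3 CPM there (median 39.4), from 26.4 to 42.5 in the amygdala (median 34.4), from 15.8 to 44.1 in the dorsal striatum (median 29.4) and from 19.6 to 47.8 in the ventral striatum (median 31). The ranges overlapped. C1qa was lower than in the dorsal hippocampus by -0.48 in the dorsal striatum (SE 0.12, edgeR adjusted p = 0.00078) and by -0.46 in the ventral striatum (SE 0.12, edgeR adjusted p = 0.0015). C1qc differed by -0.31 and -0.35 in the same pairs and was higher in the dorsal hippocampus than in the amygdala by 0.33 (SE 0.10, edgeR adjusted p = 0.0085). Without the 9 libraries the C1qc call between dorsal striatum and dorsal hippocampus was lost, as was that of C1qb (-0.26) between ventral striatum and dorsal hippocampus. C4b was called lower in the ventral striatum than in the dorsal hippocampus without the 9 libraries (-0.56, edgeR adjusted p = 0.024) and with the mouse as a block (-0.57, edgeR adjusted p = 0.037). Of the 5 complement members, 0 were called between dorsal striatum and amygdala. In the dorsal striatum 2 were lower than in the dorsal hippocampus, where 26.8% of all genes were lower, and in the ventral striatum 3 were lower, where 26.6% were.

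Among the 9 activating receptors and adaptors, 5 were higher in the dorsal striatum than in the amygdala, against 27.4% of all genes, and 1 in the ventral striatum than in the amygdala, against 22.7%. Cd14, the co-receptor that hands bacterial lipid to Toll-like receptors, was at 0.964 to 3.28 CPM in the amygdala (median 1.68), 1.41 to 4.01 in the dorsal hippocampus (median 2.36), 1.72 to 5.16 in the dorsal striatum (median 3.81) and 2.54 to 5.50 in the ventral striatum (median 3.07). Every library of the deeper set was above its floor of 3 counts for Cd14. Its difference of 1.02 between dorsal striatum and amygdala was the largest among the members called in that pair (SE 0.16, edgeR adjusted p = 1.4e-06), and in the ventral striatum the difference was 0.83 (SE 0.17, edgeR adjusted p = 7.7e-05). Between dorsal hippocampus and amygdala the Cd14 difference of 0.48 (edgeR adjusted p = 0.020) was lost without the 9 libraries (adjusted p = 0.052), and without mouse 2 (0.070), mouse 3 (0.067) or mouse 5 (0.086). Tlr7, an endosomal sensor of RNA, was higher in the dorsal striatum than in the amygdala by 0.59, Tyrobp by 0.48, Ly86 by 0.48 and the Fc receptor Fcgr3 by 0.26. The Fcgr3 call was lost with the mouse as a block (edgeR adjusted p = 0.061). Itgam, an integrin chain, was called higher in the dorsal striatum only without the 9 libraries, by 0.39 against the amygdala (edgeR adjusted p = 0.0499) and 0.37 against the dorsal hippocampus (edgeR adjusted p = 0.045). Trem2, a lipid-sensing receptor, was not called against the amygdala but was lower in both striatal regions than in the dorsal hippocampus. Its medians were 11.4 CPM in the dorsal hippocampus, 9.07 in the dorsal striatum and 9.13 in the ventral striatum. The difference was -0.46 in the dorsal striatum (SE 0.16, edgeR adjusted p = 0.011) and -0.40 in the ventral striatum (SE 0.16, edgeR adjusted p = 0.029), and the ventral striatal call was lost without the 9 libraries (adjusted p = 0.070).

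Of the interferon and antigen presentation members, Ifit3 was higher in the dorsal striatum than in the amygdala (0.50, SE 0.19, edgeR adjusted p = 0.023) and than in the dorsal hippocampus (0.50, SE 0.19, edgeR adjusted p = 0.020). The first of these calls was lost without the 9 libraries. Ifit3 averaged 7.49 CPM in the amygdala, 7.07 in the dorsal hippocampus, 10.3 in the dorsal striatum and 8.62 in the ventral striatum. Cd74, the invariant chain of MHC class II, was called in no pair of the deeper set. It did not pass the low-count filter in the shallower set. With the mouse as a block Cd74 was called between prefrontal cortex and cortex. Without a filter Cd74 and C3 were called in that pair and between ventral hippocampus and prefrontal cortex.

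Counted over the 30 members tested in the deeper set, 16 were higher and 1 lower in the dorsal striatum than in the amygdala, where 27.4% of all 15140 genes tested were higher and 27.5% lower. The members' median difference was 0.34 against 0.01 for all genes. Without the 9 libraries 16 were higher and 0 lower. In the ventral striatum 8 were higher and 0 lower than in the amygdala, against 22.7% and 23.5% of all genes, with the higher count near the background. In the dorsal striatum 9 were higher and 5 lower than in the dorsal hippocampus, against 27.4% and 26.8%, and the count of 14 was 16 without the 9 libraries. The higher count in this pair is near the background and the lower count does not exceed it. In the ventral striatum 6 were higher and 6 lower than in the dorsal hippocampus, against 26.6% and 26.6%, which is near the background. Between dorsal hippocampus and amygdala 7 were higher and 0 lower, against 18.8% and 19.8%, with the higher count near the background. With the mouse as a block 3 of these remained, and C1qb, P2ry12, P2ry13 and Tmem119 were lost. The count was 4 without the 9 libraries, where Cd14, P2ry12 and P2ry13 were lost, and 2 to 4 without mouse 1, 2, 3, 5, 10 or 12. In all, 23 of the 30 tested members were called in at least 1 pair of the deeper set. Fcrls, Fcer1g, Itgam, Tlr4, C3, C4b and Cd74 were called in none. The share of all genes called in at least 1 pair was not counted, so the 23 have no background beside them.

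The comparisons with the amygdala, and those with the dorsal hippocampus, share that region's libraries, so their counts are not independent. Summed over 6 oligodendrocyte markers, the median was 10571 CPM in the dorsal striatum (range 4441 to 16801), 6026 in the ventral striatum (3682 to 11939), 5012 in the dorsal hippocampus (1866 to 15096) and 2837 in the amygdala (956 to 9838), with no marker at 0. The part of white matter content in the regional differences was not tested. Markers of border macrophages, the other resident macrophages of the brain, had regional medians of 4.21 to 7.57 CPM in the deeper set, and those of monocytes and neutrophils summed to at most 1.39 CPM in any of its libraries. Lysosomal genes differed between regions in which border macrophage markers had medians of 6.13 (dorsal striatum), 5.77 (ventral striatum), 7.57 (dorsal hippocampus) and 4.21 CPM (amygdala).

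**Figure D3:**
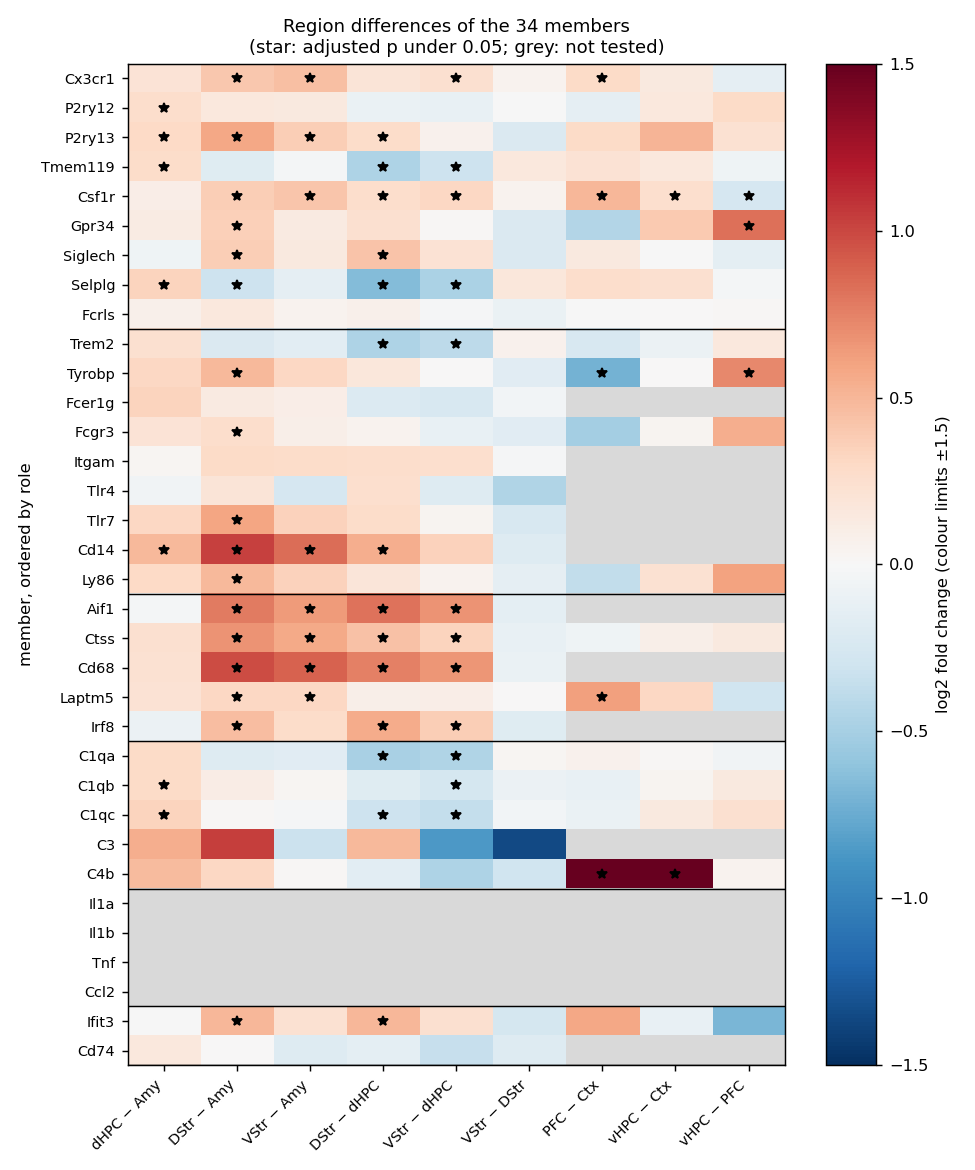
Heat map of log2 fold changes of the 34 members (rows, grouped by role with lines between roles) in 9 pairs of regions (columns), with colours limited to ±1.5, stars where the edgeR adjusted p is under 0.05 and grey where the member was not tested. Stars gather in the lysosomal rows of the 4 columns that set a striatal region against the amygdala or the dorsal hippocampus, and the column of ventral against dorsal striatum has none.

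Between the 2 striatal regions no member was called when all libraries were used. By edgeR 0 of 30 members were called, and 0 had an unadjusted p under 0.05. Of all genes, 8.1% were higher and 5.77% lower in the ventral striatum, and DESeq2 also called 0 members. The difference was -0.09 for Cd68, -0.14 for Aif1, -0.11 for Ctss and 0.18 for Selplg, and 7 of the 30 members were positive, with a median of -0.12. As members share libraries, these signs are not independent. Leaving out the 9 libraries gave 3 members lower in the ventral striatum: C3, the central complement component, at -2.40 (SE 0.76, edgeR adjusted p = 0.021), C4b at -0.63 (SE 0.22, edgeR adjusted p = 0.038) and Siglech, a sialic acid receptor, at -0.32 (SE 0.12, edgeR adjusted p = 0.048). Without mouse 10 alone, 1 member was called, C3.

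In the shallower set 20 members could be tested, and 6 were called in at least 1 pair. Here too the share of all genes called in at least 1 pair was not counted. C4b, a component of the classical complement pathway, showed the widest difference of any member. It was at 3.49 to 21.6 CPM in the cortex (median 7.89, n = 11), 22 to 87.9 in the prefrontal cortex (median 39.6, n = 8) and 25.6 to 72.9 in the ventral hippocampus (median 42.2, n = 12). The cortex did not overlap either of the other regions. C4b was 4.63-fold higher in the prefrontal cortex than in the cortex (log2 2.21, SE 0.27, edgeR adjusted p = 8.5e-08) and 4.78-fold higher in the ventral hippocampus (log2 2.26, SE 0.25, edgeR adjusted p = 8.5e-09). Oligodendrocyte markers summed to medians of 2832 CPM in the cortex (2418 to 6705), 2700 in the prefrontal cortex (1582 to 10514) and 3785 in the ventral hippocampus (1464 to 9193). Astrocyte markers summed to medians of 2222, 1688 and 2701 CPM in the same order, with ranges of 1839 to 2511, 1539 to 2579 and 2073 to 3504 and no marker at 0. The part of these cell types in the C4b difference was not tested.

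**Figure D4:**
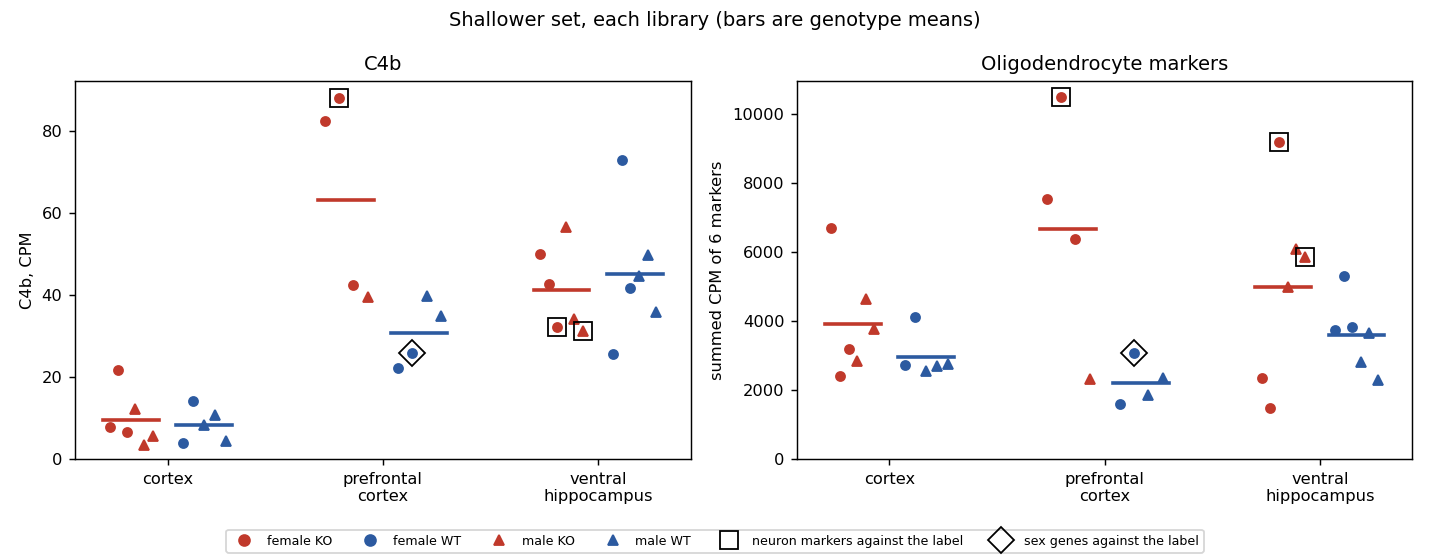
CPM of C4b and the summed CPM of 6 oligodendrocyte markers in each library of the cortex, prefrontal cortex and ventral hippocampus, with KO in red and WT in blue. Every cortex library lies at or below 21.6 CPM of C4b and every library of the other regions at or above 22, and the 3 female KO prefrontal libraries stand highest in oligodendrocyte markers within that region.

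Csf1r separated the cortex from the prefrontal cortex in every library: the cortex ran from 53.9 to 76.9 CPM (median 65.5) and the prefrontal cortex from 85.9 to 135 (median 95.0). Its difference was 0.49 (SE 0.10, edgeR adjusted p = 0.00019). Laptm5 ran from 11.8 to 29.3 CPM in the cortex (median 23.2) and from 29.6 to 41.6 in the prefrontal cortex (median 36), also without overlap (0.61, SE 0.18, edgeR adjusted p = 0.0060). Cx3cr1 was higher in the prefrontal cortex by 0.28, a call that was lost without the 9 libraries (edgeR adjusted p = 0.067), with the mouse as a block (0.11), without a low-count filter and by the DESeq2 Wald test. Tyrobp was lower there (median 7.22 CPM, range 4.23 to 13.9) than in the cortex (11.7, 6.74 to 19.9) by -0.71 (SE 0.25, edgeR adjusted p = 0.025). This call was lost without mouse 3 (adjusted p = 0.12), mouse 4 (0.078), mouse 12 (0.063) or mouse 23 (0.051). Counted together, 4 members were higher and 1 lower in the prefrontal cortex than in the cortex, against 18.9% and 19.3% of all 11195 genes tested. The higher count is near that share and the lower count does not exceed it. The count of 5 was 3 without mouse 3, 4 or 12.

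Between ventral hippocampus and cortex 2 members were higher, C4b and Csf1r, and 0 lower, against 14.1% and 14.9% of all genes. Neither count exceeds that share of the tested members. The Csf1r difference of 0.25 (edgeR adjusted p = 0.042) was lost with the mouse as a block (0.062) and without mouse 1, 2, 4, 6, 12, 13 or 23 (0.052 to 0.099), which left C4b alone. Between ventral hippocampus and prefrontal cortex 2 members were higher and 1 lower, against 15.3% and 14.9%, and again neither count exceeds that share. Gpr34, a receptor for lysophosphatidylserine, was at 13.6 to 23.1 CPM in the ventral hippocampus (median 18.9) and 6.15 to 17.1 in the prefrontal cortex (median 9.91), a difference of 0.83 (SE 0.21, edgeR adjusted p = 0.0024). Tyrobp was higher in the ventral hippocampus by 0.72 (edgeR adjusted p = 0.026), a call lost without mouse 3, 4, 12, 13 or 23 (0.051 to 0.067). Csf1r was lower by -0.25 (edgeR adjusted p = 0.047), a call lost with the block (0.064), without the 9 libraries (0.10) and without mouse 1, 4, 5, 6, 10, 11, 12 or 24 (0.052 to 0.23). Without mouse 4 only Gpr34 was called in this pair.

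Other genes of the same pathways were counted on lists that share no gene with the members. Of 33 other microglia genes tested in the deeper set, 16 were higher and 4 lower in the dorsal striatum than in the amygdala, against 27.4% and 27.5% of all genes. The same numbers held for the ventral striatum, against 22.7% and 23.5%. Ikzf1, a lymphoid and myeloid transcription factor, was higher by 0.90 in the dorsal striatum than in the amygdala. Spi1, which encodes PU.1, was lower in the ventral striatum than in the dorsal hippocampus by -1.18. Of 23 other interferon-stimulated genes tested, 9 were higher and 1 lower in the dorsal striatum than in the amygdala (27.4% and 27.5% of all genes), with Gbp2 at 1.03 and Gbp3 at 0.90. The ventral striatum had 7 of them lower than the dorsal striatum and 0 higher (5.77% and 8.1% of all genes), with Gbp2 at -0.73 and Ifitm3 at -0.63. Ifit3, the interferon member, was called higher in the dorsal striatum than in the amygdala and the dorsal hippocampus as well, but not in the ventral against the dorsal striatum.

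Of 8 other complement genes tested, 3 were higher and 0 lower in the dorsal hippocampus than in the amygdala, where 18.8% of all genes were higher and 19.8% lower. Serping1, the C1 inhibitor, was higher there by 1.54 and lower in the ventral striatum than in the dorsal hippocampus by -1.69. Of 9 genes for ligands of microglial receptors, 1 was higher and 5 were lower in the dorsal striatum than in the amygdala, where 27.4% and 27.5% of all genes were. Il34, a ligand of CSF1R, was lower in the dorsal hippocampus than in the amygdala by -0.89, and Cd200, a neuronal ligand of a microglial inhibitory receptor, by -0.95. Of 16 genes of the Toll-like receptor and NF-kB pathway tested, 9 were higher and 0 lower in the dorsal hippocampus than in the amygdala (18.8% and 19.8% of all genes), among them Traf6 at 0.55 and Hmgb1 at 0.43. Of 9 genes of disease-associated microglia tested, 6 were higher and 1 lower in the dorsal striatum than in the amygdala (27.4% and 27.5% of all genes), with Ctsz at 1.29 and Ctsd at -0.74. Of 10 MHC genes tested, 2 were higher and 3 lower in that pair, which is near the same background.

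No member was called between KO and WT in any of the 7 regions over both sexes. Of all genes tested, edgeR called 0.00675% (amygdala), 0.00977% (cortex), 0.00702% (dorsal hippocampus), 0.00702% (dorsal striatum), 0.00951% (ventral hippocampus) and 0.00721% (ventral striatum), which is 1 gene each. In the prefrontal cortex it called 0.0973%, or 11 of 11300. The module mean of KO minus WT libraries was -0.06 (amygdala), 0.02 (cortex), 0.11 in the dorsal hippocampus, 0.03 in the dorsal striatum, -0.02 in the prefrontal cortex, -0.10 in the ventral hippocampus and -0.11 in the ventral striatum. Each was within 1 pooled SD of the libraries (0.139 to 0.257). At an unadjusted edgeR p under 0.05 the members numbered 1 of 29 for the amygdala and 2 of 17 for the cortex. They numbered 3 of 30 in the dorsal hippocampus, 2 of 22 in the prefrontal cortex and 2 of 19 in the ventral hippocampus. In each striatal region there were 0. Of all genes tested, 302 were higher and 203 lower of 14813 for the amygdala, and 320 and 349 of 10236 for the cortex. These counts were 220 and 183 of 14235 in the dorsal hippocampus and 449 and 520 of 11300 in the prefrontal cortex. They were 277 and 257 of 10515 in the ventral hippocampus. In the dorsal striatum they were 93 and 133 of 14239, and in the ventral striatum 503 and 507 of 13878. DESeq2 called 0 members in each of the 7 comparisons.

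**Figure D5:**
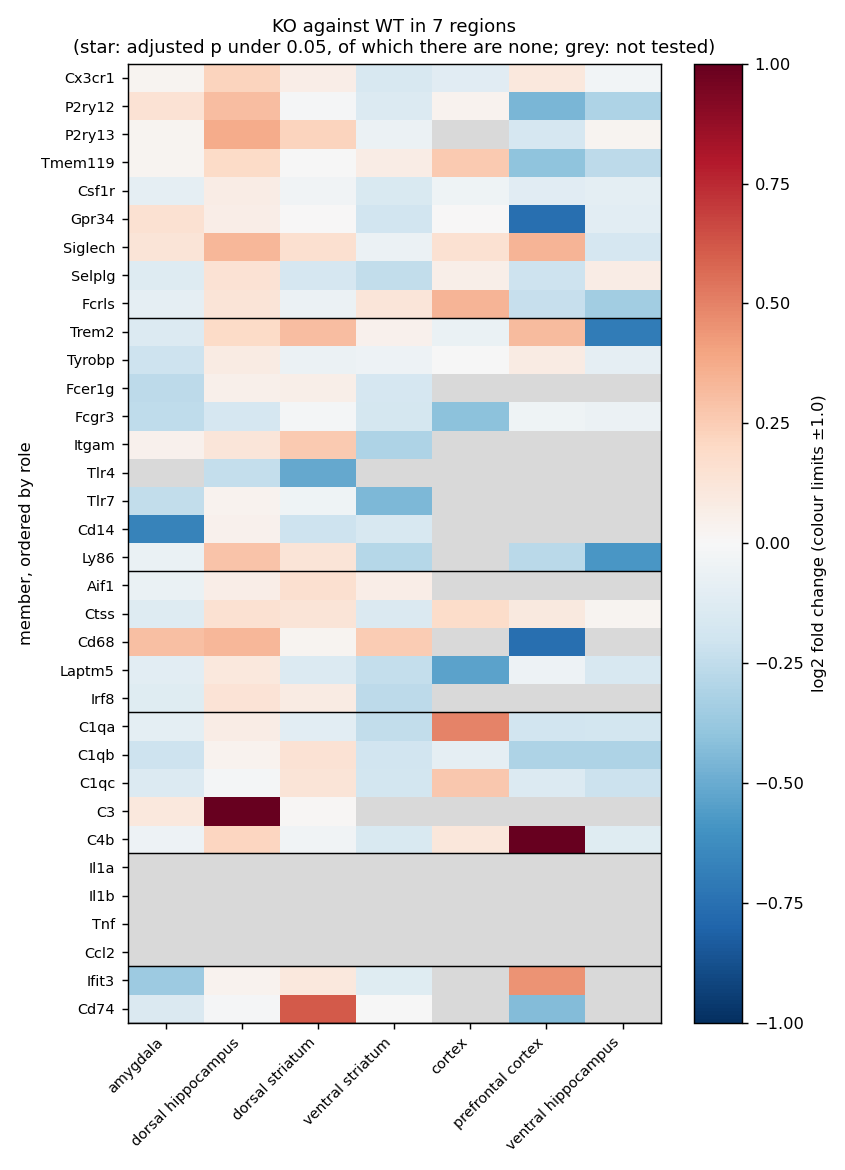
Heat map of the KO minus WT difference (log2 fold change over both sexes) for the 34 members (rows, grouped by role) in the 7 regions (columns), with colours limited to ±1.0 and grey where a member was not tested. No cell passes the edgeR threshold, and C4b in the prefrontal cortex has a value of 1.00.

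The signs of the differences varied by region. In the dorsal hippocampus 26 of 30 tested members were positive (median 0.11) and in the ventral hippocampus 3 of 19 (median -0.16). In the ventral striatum 5 of 28 were positive (median -0.16). The medians over all genes tested were -0.02, 0.002 and 0.001 in the same order. Members were measured in the same libraries, so their signs are not independent, and these counts were not tested. The share of all genes that were positive was not counted. The highest module mean in the ventral striatum was 3.95, in female WT mouse 11, and the next was 3.59, in male WT mouse 3. P2ry13, a nucleotide receptor, was at 11.8, 13.9 and 9.58 CPM in the female KO, 13.4, 13.7 and 15.5 in the male KO, 11, 11.6 and 9.10 in the female WT and 9.66, 9.30 and 9.28 in the male WT libraries of the dorsal hippocampus. Only female KO mouse 6, at 9.58 CPM, fell inside the WT range. Its difference of 0.37 had an unadjusted edgeR p of 0.016 and an adjusted p of 1.0. P2ry12 differed by 0.31 (SE 0.13) in the same region. In the ventral hippocampus Trem2 was at 9.08, 5.83 and 16.6 CPM in the female KO, 9.59, 9.12 and 7.20 in the male KO, 9.61, 16.6 and 14.6 in the female WT and 23.8, 17 and 14.9 in the male WT libraries. All KO libraries but female mouse 6 were below the lowest WT library. The difference was -0.70 (SE 0.29, edgeR adjusted p = 0.97), and the library of female KO mouse 6 is 1 of the 9 whose neuron markers went against the label. Ly86, a partner of a Toll-like receptor homologue, differed by -0.58 (SE 0.27) there.

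In the other regions the members with the smallest p were Cd14 (-0.66) and C1qb (-0.21) in the amygdala, Laptm5 (-0.53) and C1qa (0.50) in the cortex, Cd74 (0.61) and Tlr4 (-0.51) in the dorsal striatum, and Tlr7 (-0.45) and Selplg (-0.24) in the ventral striatum. None passed adjustment over all genes. Laptm5 in the cortex was at 11.8, 28.3 and 17.6 CPM in the female KO, 18.9, 18.6 and 15.4 in the male KO, 23.2 and 27 in the female WT and 29.3, 27.2 and 24.8 in the male WT libraries. Female KO mouse 5, at 28.3 CPM, was the only KO library inside the WT range.

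C4b in the prefrontal cortex had the smallest p of any member in the KO comparisons. It was at 82.4, 87.9 and 42.3 CPM in the female KO libraries of mice 4, 5 and 6, at 39.5 CPM in the male KO library, at 22 and 25.7 CPM in the libraries labelled female WT and at 39.6 and 34.9 CPM in the male WT libraries. The 3 female KO libraries were above all others, and the male KO library lay between the 2 male WT libraries. The difference over both sexes was 2.00-fold (log2 1.00, SE 0.30, edgeR adjusted p = 0.25). Without a low-count filter it passed, with an adjusted p of 0.00089. Within the libraries labelled female it was 2.94-fold (log2 1.56, SE 0.32, edgeR adjusted p = 0.059), and it passed by DESeq2 (adjusted p = 0.0496) and without mouse 6 (edgeR adjusted p = 0.0099). That fit sets 3 KO libraries against 2, of which that of mouse 23 has sex genes that go against its label, and without it 0 members were called by edgeR. Oligodendrocyte markers summed to 7544, 10514 and 6372 CPM in the 3 female KO, 2314 CPM in the male KO and 1582 to 3059 CPM in the WT libraries, and their part in the C4b difference was not tested. Border macrophage markers were at 2.44 to 12.4 CPM in the KO and 14.7 to 33.9 CPM in the WT libraries of this region. C3 had 1, 8 and 19 counts in the female KO, 2 in the male KO and 0 in each WT library, of which only the 8 and 19 exceed the floor of 3 counts. P2ry12 went the other way (-0.46, SE 0.21, edgeR adjusted p = 0.56), at 21.1, 35.5 and 26.9 CPM in the female KO, 27.2 in the male KO, 41.6 and 35.5 in the female WT and 36.8 and 36 in the male WT libraries.

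Within 1 sex, 0 members were called in 13 comparisons of KO with WT by edgeR. Of all genes the share called in males and in females was 0.00657% each for the amygdala, 0.00947% each for the cortex, 0.0069% each in the dorsal hippocampus, 0.00689% each in the dorsal striatum and 0.00929% each in the ventral hippocampus. In the ventral striatum it was 0.00708% in males and 0% in females, and in the female prefrontal cortex 0.269%, or 32 of 11894. An interaction of sex and genotype could be fitted in 6 regions, where 0 members and 0% of all genes were called. In the ventral striatum the KO difference was more positive in males than in females for 26 of 28 tested members, with a median of 0.40 (0.29 without the 9 libraries), from a female median of -0.31 and a male median of 0.04. None of these passed. The median over all genes tested was 0.03, and members measured in the same libraries are not independent. The module mean of female WT mouse 11 in this region was 3.95. It was 3.32 and 3.30 in the other female WT libraries and 3.10, 3.52 and 3.37 in the female KO libraries. In the male dorsal hippocampus P2ry13 differed by 0.63, and in the male ventral hippocampus Trem2 by -1.08 (SE 0.40, edgeR adjusted p = 0.57).

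Between males and females edgeR called 0 members in the 7 regions, against 0.0405% of all genes for the amygdala, 0.0879% for the cortex, 0.0421% in the dorsal hippocampus, 0.0492% in the dorsal striatum, 0.0442% in the prefrontal cortex, 0.0476% in the ventral hippocampus and 0.0432% in the ventral striatum. The prefrontal library of mouse 23 was counted as female by its label, which its sex genes go against. The sexes were deposited as separate tables, so sex and table cannot be told apart. Tmem119 in the amygdala was at 21.7 to 25.8 CPM in the 5 female and 17.4 to 20.9 CPM in the 6 male libraries, without overlap. Its difference of -0.33 (SE 0.08) had an edgeR adjusted p of 0.12, and DESeq2 called it (adjusted p = 0.029) together with C1qa (-0.32, adjusted p = 0.041). The signs of the members differed by region: 2 of 29 were higher in males in the amygdala (median -0.22), 1 of 30 in the dorsal striatum (median -0.28) and 24 of 30 in the dorsal hippocampus (median 0.14). The medians over all genes tested were 0.003, 0.005 and -0.01 in the same order. As members share libraries, their signs are not independent, and these counts were not tested. At an unadjusted edgeR p under 0.05, 6 members were lower in males in the amygdala and 7 in the dorsal striatum. In the dorsal hippocampus 3 were higher. Of all 14813 genes tested in the amygdala, 1461 were lower and 1177 higher in males at this threshold. In the dorsal striatum 673 of 14239 genes were lower, and in the dorsal hippocampus 329 of 14235 were higher. Tmem119, C1qa, C1qb and C1qc were among the 6 of the amygdala, and Aif1 (0.78), Trem2 and C1qa were the 3 of the dorsal hippocampus.

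The cytokine members were near or under the floor, and 0 passed the low-count filter of the comparisons between regions. With the mouse as a block, whose filter kept Il1a, it was higher in the ventral striatum than in the dorsal hippocampus (1.33, edgeR adjusted p = 0.0024), and this call was also made without a filter. Without a filter Ccl2 was called lower in the dorsal striatum than in the amygdala, and Tnf lower than in the dorsal hippocampus, with every dorsal striatal library under the floor. Tnf had 8 counts in all 78 libraries together and 0 in 71 of them, and Ccl2, which attracts monocytes, had 22 counts and 0 in 64. Il1b had 34 counts, with 0 in 52 libraries and 77 of 78 under the floor of 3 counts. Il1a reached 244 counts and was under the floor in 44 libraries, with a mean of 1.02 ± 0.57 CPM in the ventral striatum and 0.374 CPM in the dorsal hippocampus (n = 12 each). None of the 4 passed the low-count filter in the comparisons of genotypes. C3 was at 0 in 27 libraries, among them all 11 of the cortex, where 3 counts correspond to 2.96 to 4.19 CPM. Cd14 was under the floor in 9 of 11 cortex, 8 of 12 ventral hippocampal and 1 of 8 prefrontal libraries. Ifit3 had at least 3 counts in all 78 libraries, with 5.70 to 37.3 CPM in the prefrontal cortex. Its highest value there came from female KO mouse 5, a library whose neuron markers went against the label.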

How the data were processed

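The data were gene counts deposited by the authors as 2 tables, 1 per sex, holding all 78 libraries. Per the submitters' processing notes, reads were handled with STAR 2.5.2a, SAMtools 1.1, HTSeq 0.6.1 and R 4.0.2 on GRCm38 (mm10). The annotation, strand setting and filters are not given in the sources used here. Lengths and positions came from GENCODE gene models matched to 53253 of 55367 symbols.

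CPM used column totals. Groups followed the labels, which describe separate mice. Main tests used edgeR 4.0.16 (quasi-likelihood, TMM, its default low-count filter) in R 4.3.3, with Benjamini-Hochberg adjustment at 0.05 over all genes tested. KO and sex comparisons used 1 region each, and regions were compared within a depth set. Fits were tested on simulated data. Alternatives were DESeq2 1.42.0, its size factors, no filter, leaving out mice or libraries, single-sex fits and the mouse as a block. The module mean added 1 CPM before the logarithm.

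Members and lists were chosen with earlier results of these data known. Values are printed for members called in genotype or sex comparisons, the 2 with the smallest KO p per region, the 3 widest called per region pair, the 3 highest and lowest by level, and the low members Il1a, Il1b, Tnf, Ccl2, Ifit3 and Cd14. Further members were named after their values were seen. Other lists are given by counts and examples from their 2 smallest adjusted p in chosen pairs. The same mouse gave several regions, so the labels pair region libraries. Deviations of same-mouse libraries correlated at 0.038 on average over 69 pairs in the deeper set (-0.35 to 0.57) and at -0.020 over 24 pairs in the shallower set. Counting intervals would cover counting error only.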

Additional observations from a re-analysis of the deposited data

Results flagged for a closer look

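Of 42 groups of 4 to 10 libraries examined, 2 held a library far from the others, where chance gives about 1 in 20. In the dorsal striatum the lowest module mean among the 6 KO libraries was 2.96, in male KO mouse 10, and the next was 3.44. The gap was 0.663 of the group's range, above Dixon's limit of 0.625. In the ventral hippocampus the highest Trem2 level among the 6 KO libraries was 16.6 CPM, in female KO mouse 6, and the next was 9.59 CPM, a gap of 0.651 of the range. Neuron markers went against the region label in both libraries, and their part in these values was not tested.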

How the results depend on the processing

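No called result reversed under any alternative. DESeq2 size factors and single-sex fits moved no count of called members by over 1.5 times, and DESeq2 size factors added Gpr34 between dorsal striatum and dorsal hippocampus. The replicate block (mouse) moved the count for dorsal hippocampus against amygdala from 7 to 3 and for ventral hippocampus against cortex from 2 to 1, and it moved no other count of calls by over 1.5 times. Without a low-count filter these counts were 2 and 1, and the prefrontal cortex gave 2 members for KO over both sexes, 2 for KO in females and 1 for sex. The DESeq2 Wald test gave 1 member for KO in the female prefrontal cortex and 2 for sex in the amygdala. Leaving out the 9 libraries whose neuron markers go against the label, an alternative chosen after seeing the data, gave 4 for dorsal hippocampus against amygdala and 3 for ventral against dorsal striatum. The cause was not tested.

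With each mouse left out in turn, there were 2 to 8 members for dorsal hippocampus against amygdala, 16 to 17 and 8 to 11 for dorsal and ventral striatum against amygdala, 12 to 15 and 8 to 12 for the same against dorsal hippocampus, and 0 to 1 between them. It gave 3 to 6 for prefrontal cortex against cortex, 1 to 3 for ventral hippocampus against cortex, 1 to 4 for ventral hippocampus against prefrontal cortex and 0 to 1 for KO in the female prefrontal cortex. KO counts over both sexes stayed at 0. The sign of the module difference changed without mouse 13 in the cortex, without mouse 4, 5 or 23 in the dorsal striatum and without mouse 1 or 11 in the prefrontal cortex. It also changed with the median over members in the cortex (-0.09) and with members of at least 3 counts in every library in the prefrontal cortex (0.04). The KO difference in the module mean ranged from -0.10 to -0.02 for the amygdala, -0.05 to 0.07 for the cortex, 0.05 to 0.14 in the dorsal hippocampus, -0.02 to 0.13 in the dorsal striatum, -0.09 to 0.06 in the prefrontal cortex, -0.16 to -0.06 in the ventral hippocampus and -0.16 to -0.01 in the ventral striatum. Depth limits the shallower set, where 20 of 34 members could be tested between regions.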
